A study of Mus musculus with 2 samples.

Results

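The circadian output and repressor genes are 10 genes of the cell-autonomous clock, read here in RAW264.7 cells treated with vehicle control or with IR-61. They are *Dbp*, *Tef*, *Nfil3*, *Bhlhe40*, *Bhlhe41*, *Per1*, *Per2*, *Per3*, *Nr1d1* and *Nr1d2*. All 10 were found among the 20655 genes that could be named on the arrays, with 12 probes in all, and 9 of them were measured well above background on both arrays. The genes were selected on their place in the clock with the difference between these 2 arrays already known, so their counts and differences are a description, and no test rests on them. RAW264.7 is an established macrophage line that was derived from an Abelson murine leukemia virus-induced tumor of an adult male BALB/c mouse. IR-61 is a near-infrared heptamethine cyanine dye that accumulates in mitochondria. One culture received vehicle control and another received 10 μM IR-61, each for 24 h in serum-containing DMEM, and RNA of each was hybridized to a single-colour Agilent mouse array. Each condition rests on 1 culture and 1 array, so the spread between cultures is unknown and the conditions were compared without a test or p-value. Both cultures were harvested at a single time point, so a changed level and a shifted phase of a rhythm cannot be told apart.

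In the mammalian clock, the activators CLOCK and BMAL1 (encoded by *Clock* and *Arntl*) bind E-boxes and drive the genes of their own repressors, among them the period proteins, the cryptochromes, the DEC proteins of *Bhlhe40* and *Bhlhe41* and the REV-ERB nuclear receptors of *Nr1d1* and *Nr1d2*. The REV-ERB receptors repress *Arntl* and *Nfil3* through elements that they share with the ROR receptors. DBP and TEF, of the PAR bZIP family, carry the rhythm to output genes through D-boxes, where NFIL3 acts as a repressor. Macrophages have such a clock of their own, and REV-ERB receptors are known there as repressors of inflammatory genes.

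The promoter windows of *Dbp*, *Tef*, *Per1* and *Per3* are shown because *Dbp* and *Tef* had the largest differences among these genes. *Per1* carries an E-box and *Per3* carries D-boxes to set beside them. The windows run from 250 bases before to 50 bases after the annotated start in RefSeq on GRCm38.p6, 5′ to 3′ on the strand of the gene, and capitals mark a motif.
*Dbp*, chr7:45704997-45705296 (+ strand): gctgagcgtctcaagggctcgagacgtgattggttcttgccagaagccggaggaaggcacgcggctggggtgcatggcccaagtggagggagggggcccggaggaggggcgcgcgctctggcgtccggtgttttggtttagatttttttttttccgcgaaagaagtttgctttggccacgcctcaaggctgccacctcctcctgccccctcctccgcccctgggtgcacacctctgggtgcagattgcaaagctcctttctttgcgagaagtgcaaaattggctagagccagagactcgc
*Tef*, upstream start, chr15:81802423-81802722 (+ strand): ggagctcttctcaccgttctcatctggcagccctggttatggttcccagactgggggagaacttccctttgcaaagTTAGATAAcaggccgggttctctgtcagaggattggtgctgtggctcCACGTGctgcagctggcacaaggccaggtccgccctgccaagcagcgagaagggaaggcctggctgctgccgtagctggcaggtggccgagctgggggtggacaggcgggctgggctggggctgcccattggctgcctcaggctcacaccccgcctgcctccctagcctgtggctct
*Tef*, downstream start, chr15:81811164-81811463 (+ strand): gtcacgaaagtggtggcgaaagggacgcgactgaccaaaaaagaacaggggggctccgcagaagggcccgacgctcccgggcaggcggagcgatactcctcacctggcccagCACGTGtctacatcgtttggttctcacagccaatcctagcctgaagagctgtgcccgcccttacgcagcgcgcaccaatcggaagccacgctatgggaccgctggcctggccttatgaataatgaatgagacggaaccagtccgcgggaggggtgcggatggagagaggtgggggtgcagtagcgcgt
*Per1*, upstream start, chr11:69098699-69098998 (+ strand): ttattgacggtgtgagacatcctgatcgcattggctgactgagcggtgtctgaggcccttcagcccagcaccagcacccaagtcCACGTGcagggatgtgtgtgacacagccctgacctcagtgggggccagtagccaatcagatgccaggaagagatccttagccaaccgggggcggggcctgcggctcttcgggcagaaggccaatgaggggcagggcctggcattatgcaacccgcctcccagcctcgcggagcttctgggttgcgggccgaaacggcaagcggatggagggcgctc
*Per3*, chr4:151044616-151044915 (- strand): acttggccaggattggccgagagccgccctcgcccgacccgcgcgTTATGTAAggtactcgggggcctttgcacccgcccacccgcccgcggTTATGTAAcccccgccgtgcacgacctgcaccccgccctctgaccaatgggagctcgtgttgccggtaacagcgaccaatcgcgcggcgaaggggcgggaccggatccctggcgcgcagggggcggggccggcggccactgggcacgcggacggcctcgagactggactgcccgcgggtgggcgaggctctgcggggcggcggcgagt
The motifs searched on both strands were the E-box CACGTG, the D-box TTANNTAA, the cyclic AMP response element TGACGTCA and TAGGTCA, the core of the element shared by ROR and REV-ERB receptors. None of these letter strings contains another. *Dbp* held none of them in this window. In *Tef* an E-box began 127 bases before the upstream start, with a D-box of the letters TTAGATAA at 174 bases, and another E-box began 138 bases before the downstream start. *Per1* held an E-box 166 bases before its upstream start and none of the motifs at its downstream start. *Per3* held 2 D-boxes of the letters TTATGTAA, at 205 and 158 bases. Among the windows not shown, *Bhlhe41* held an E-box at 153 bases and *Nfil3* held the ROR and REV-ERB core on the reverse strand, 12 bases before its start, and those of *Nr1d1* and *Nr1d2* held none. The table had 10 windows for 8 of the 10 genes, and *Per2* and *Bhlhe40* were not in it. Of all 32851 windows of this length, 7.15% held the E-box, 6.0% the D-box, 1.79% the cyclic AMP response element and 2.61% the ROR and REV-ERB core. The stricter D-box TTATGTAA, counted with its reverse complement, was in 0.94% of them. Of the members with a window only *Per3* held it, and the letters in *Tef* match TTANNTAA alone. A match is a description of the letters and not evidence of binding.

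The values behind each comparison were processed signals, which the Agilent software gives after background subtraction within an array. The IR-61 array was brighter as a whole, with a 75th percentile of the log2 signal of 10.79 against 10.30 for vehicle. This percentile was subtracted from each array, so a difference below is IR-61 minus vehicle on the log2 scale relative to that level, and 1 on this scale is 2-fold. Without scaling each difference would be higher by 0.49, which turns the sign of small negative differences. On this scale the 16885 genes measured on both arrays had a median difference of 0.10 and an SD across genes of 0.44. The error that could be measured was that between spots of 1 probe on 1 array, taken from probes printed 10 times. Its root mean square over probes was 0.070 and 0.063 for vehicle and IR-61 above a log2 signal of 10, 0.179 and 0.146 between 6 and 10, and 0.350 and 0.301 below 6. Each member probe was printed as a single spot, and the SD given beside its difference is the one expected from these values. This SD excludes the spread between cultures and the gap between probes of 1 gene. Signals of different genes are given for their own comparison between the arrays and not against each other. Of the 10 macrophage markers *Cd68* had no named probe and the other 9 were well above background on both arrays. Their summed signals were 208178 and 385495 with vehicle and IR-61, and *Csf1r* had 95036 and 139210. After scaling these markers split in direction. *Adgre1* was at 1.03, *Fcgr1* at 0.99, *Itgam* at 0.65 and *Csf1r* at 0.06. *Mrc1* was at −0.02, *Ptprc* at −0.09, *Lyz2* at −0.18, *Spi1* at −0.83 and *Cd14* at −0.98. Of the other markers, 3 of 4 for T cells, all 4 for B cells, 2 of 4 for epithelial cells, all 4 for fibroblasts and 1 of 3 for hepatocytes were well above background on each array. Their summed signals were 2090.4 and 3041, 618 and 555, 262 and 268, 48188 and 88458, and 28.3 and 52.2 with vehicle and IR-61. All sums of markers are of signals not scaled between the arrays, so they include the brighter IR-61 array. They do not compare cell types with each other. Among the fibroblast markers, the collagen gene *Col1a1* had signals of 27148 and 58670.1. The part of these markers in the results below was not tested.

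**Figure D1:**
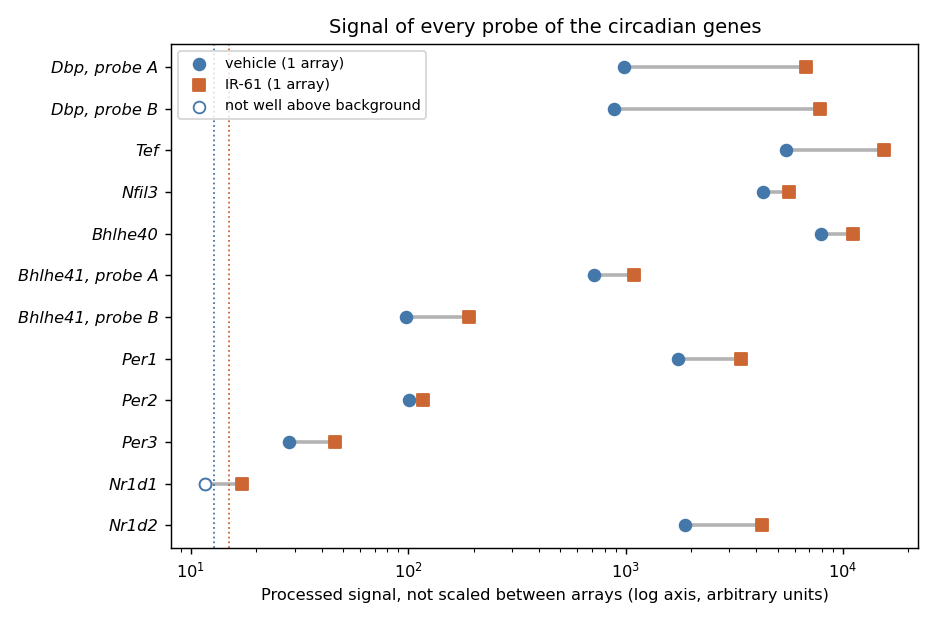
Processed signal (log axis, arbitrary units, not scaled between arrays) of each of the 12 probes of the circadian output and repressor genes, with a circle for the vehicle array and a square for the IR-61 array. Dotted lines mark the lowest signal well above background, 12.8 for vehicle and 15.0 for IR-61, and the open circle of *Nr1d1* lies below it. The widest gaps are those of the *Dbp* probes, from 979 to 6730.3 and from 881 to 7818.

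*Dbp* and *Tef*, the activators that act through D-boxes, were the only members higher by 2-fold or more with IR-61. Of all measured genes 1.99% were higher by 2-fold or more, and of the 7505 with a mean log2 signal above 10 it was 1.03%. *Dbp*, a classic output gene of the clock, was read by 2 probes. Its brighter probe (probe B) had a signal of 881 with vehicle and 7818 with IR-61. After scaling, this was a log2 difference of 2.66 with an expected SD of 0.189, equal to a 6.33-fold higher signal. Its other probe (probe A) had signals of 979 and 6730.3, a log2 difference of 2.29 and a 4.90-fold higher signal. The probes thus differed by 0.37 from each other in size and not in direction. Over the 4160 genes with several measured probes, the median gap between the 2 brightest was 0.32 and the 90th percentile 0.83. Of the 70 such genes whose brightest probe was higher by 2-fold or more, 10 had a next probe that also was, and *Dbp* is one of them. Ordered from the highest difference, *Dbp* took rank 4 of the 16885 genes. In the plot of all measured genes it stands apart at its brightness, since 0.0133% of the genes above a log2 signal of 10 had a difference as high, which is *Dbp* alone. The rank and this share rest on probe B, the brighter over both arrays together but the dimmer with vehicle. With probe A, at 2.29, the rank would be lower.

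*Tef*, the PAR bZIP relative of *Dbp*, was read by 1 bright probe, with a signal of 5496 with vehicle and 15519 with IR-61. Its log2 difference was 1.01 with an expected SD of 0.095, a 2.01-fold higher signal and rank 326. This value lies at the 2-fold limit, and with scaling by the median, quantile normalization, the 75th percentile over detected probes or the deposited log2 values *Tef* was below it, at 0.93 with the deposited values. The third PAR bZIP gene, *Hlf*, which was not a member, had signals of 121 and 186 and a difference of 0.14, within its expected SD of 0.230. *Nfil3*, the repressor at the same D-boxes, had a signal of 4293 with vehicle and 5666 with IR-61. Its log2 difference was −0.09 with an expected SD of 0.095, which lies within the spread between spots, and without scaling it was 0.40. Within an array the scaling cancels, and the ratio of *Dbp* to *Nfil3* was higher with IR-61 by 2.75 on the log2 scale and that of *Tef* to *Nfil3* by 1.1. The difference of *Dbp* exceeded that of *Tef* by 1.65.

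**Figure D2:**
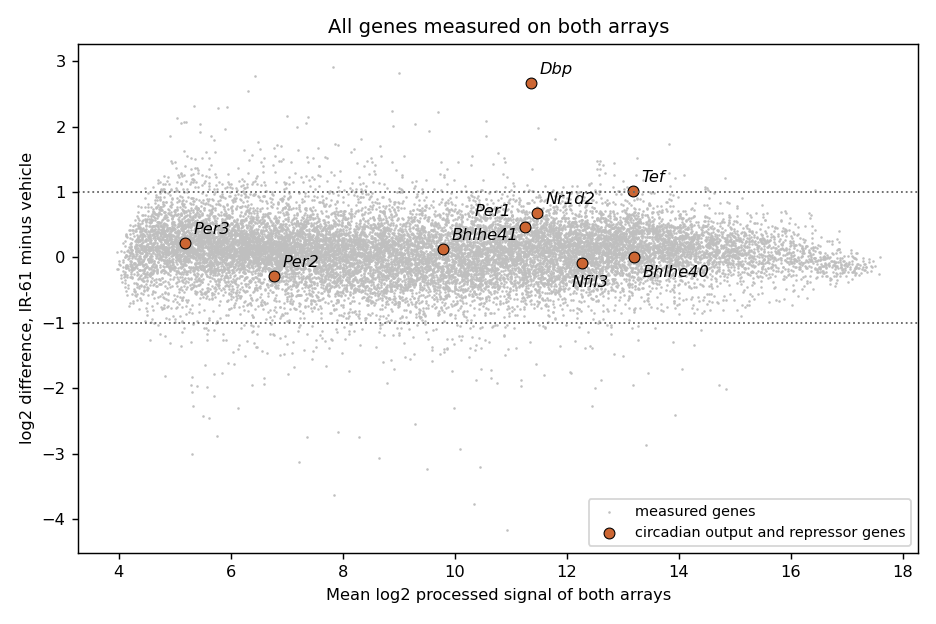
The log2 difference, IR-61 minus vehicle, against the mean log2 processed signal of both arrays for the 16885 measured genes (grey) and the 9 measured members (orange). Dotted lines mark 2-fold, and *Dbp* at 2.66 lies far above the band of genes of like brightness, with *Tef* at 1.01 on the line and the remaining members inside it.

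The E-box repressors of the DEC family showed little difference. *Bhlhe40*, which encodes DEC1, had a signal of 7883 with vehicle and 11151 with IR-61. Its log2 difference was 0.01 with an expected SD of 0.095, and the rise in raw signal was that of the array as a whole. *Bhlhe41*, which encodes DEC2, had signals of 712 and 1098 on its brighter probe, a log2 difference of 0.14 with an expected SD of 0.189. Its dimmer probe had signals of 97.3 and 190.1 and a difference of 0.48 with an expected SD of 0.230. The probes of *Bhlhe41* were both higher with IR-61, and their gap of 0.34 was close to the median gap over all genes with several probes.

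The 3 period genes, whose proteins join the cryptochromes to inhibit CLOCK and BMAL1, did not share a direction. *Per1*, read by 1 probe, had a signal of 1749 with vehicle and 3403 with IR-61. Its log2 difference was 0.47 with an expected SD of 0.095, a 1.39-fold higher signal, and 15.2% of all measured genes had a difference at least as high. *Per2* had signals of 101 and 117. Its difference was −0.28 with an expected SD of 0.230, and without scaling between the arrays it was 0.21, with the opposite sign. *Per3* had signals of 28.2 and 46.3, near the lowest values well above background, and a difference of 0.23 within its expected SD of 0.462. Within an array, the ratio of *Per1* to *Per2* was higher with IR-61 by 0.75 on the log2 scale. This pair joins the highest and the lowest of the period genes, so the ratio is the largest among them. The order of the differences was *Per1*, *Per3* and *Per2*, and *Per3* did not differ from the other two beyond the spread between spots.

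The REV-ERB receptors could be compared for 1 of the pair. *Nr1d2*, which encodes REV-ERBβ, was read by 1 probe and had a signal of 1878 with vehicle and 4218 with IR-61. Its log2 difference was 0.68 with an expected SD of 0.095, a 1.60-fold higher signal, and 6.70% of all measured genes had a difference at least as high. *Nr1d1*, which encodes REV-ERBα, had signals of 11.6 and 17.3. It was not well above background with vehicle and barely so with IR-61, where the lowest signal well above background was 15.0, and no fold can be given. *Arntl*, which REV-ERB receptors repress, had signals of 1198 and 1218 and a log2 difference of −0.46 with an expected SD of 0.095, or 0.02 without scaling. Within an array the ratio of *Nr1d2* to *Arntl* was higher with IR-61 by 1.14. *Arntl* had the lowest difference among the activators, cryptochromes and ROR genes, so a large ratio follows in part from the choice of this pair. *Nfil3*, which REV-ERB receptors also repress, had a difference of −0.09, within its expected SD of 0.095. A part of the receptors in these differences was not tested.

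Taking the 9 measured members in order, *Dbp*, *Tef*, *Nr1d2* and *Per1* lay above the median of all genes by 2.56, 0.91, 0.58 and 0.37. *Per3* and *Bhlhe41* lay above it by 0.13 and 0.04, and *Bhlhe40*, *Nfil3* and *Per2* lay below it by 0.09, 0.19 and 0.38. The median difference of the members was 0.23 against 0.10 for all measured genes. In all 7 of the 9 were above 0 as scaled here, with *Bhlhe40* only just so at 0.01, and 61.2% of all measured genes were. None was lower by 2-fold or more, and 1.39% of all measured genes and 1.09% of those above a log2 signal of 10 were. The scaling sets the balance of all genes past the limit, which was 336 higher and 235 lower as scaled here and 257 higher and 279 lower with quantile normalization, 249 and 295 with scaling by the median, and 266 and 281 with the deposited values. It moves the difference of every gene on the array by the same amount, apart from quantile normalization and the deposited values, so under the others the order of the members is the same.

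**Figure D3:**
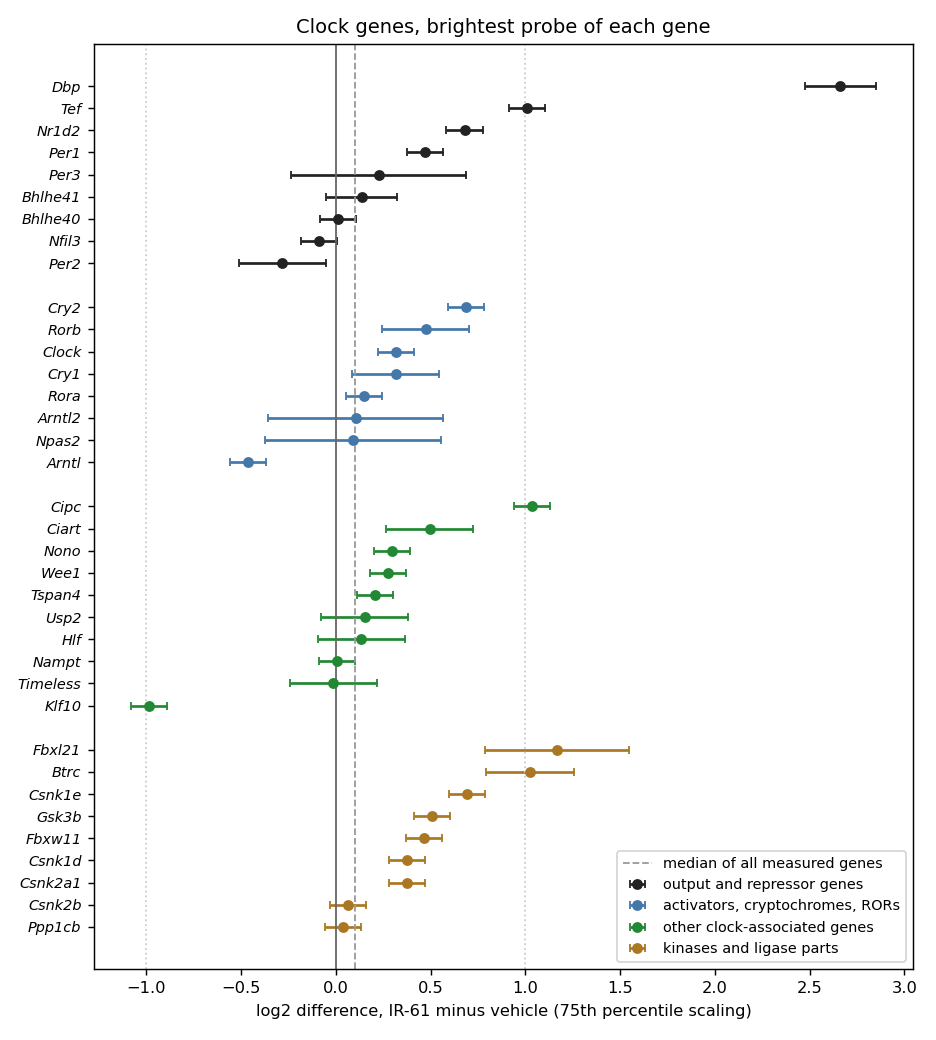
The log2 difference, IR-61 minus vehicle, of the brightest probe of each measured gene in 4 groups, the members (black), the activators, cryptochromes and ROR receptors (blue), other clock-associated genes (green), and kinases and ubiquitin ligase parts (brown). Bars give the expected SD between spots, the dashed line is the median of all measured genes at 0.10, and dotted lines mark 2-fold. *Dbp* has the largest difference of the genes plotted and *Klf10*, at −0.98, the lowest.

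Among the other parts of the clock, 8 genes for activators, cryptochromes and ROR receptors were measured, and none of these differed by 2-fold in either direction. Their median was 0.23, with 7 above 0. Of all measured genes 61.2% were above 0, and 1.99% were higher and 1.39% lower by 2-fold or more. None past 2-fold among 8 genes lies near those shares. *Cry2*, a cryptochrome that inhibits CLOCK and BMAL1, had the largest difference in this group, with signals of 1057 and 2386 and a difference of 0.69 (expected SD 0.095). The other cryptochrome, *Cry1*, had a difference of 0.32 (expected SD 0.230), from signals of 501 and 876. *Arntl*, at −0.46, was the only one below 0 as scaled here. Its partner *Clock* had signals of 2154 and 3763 and a difference of 0.32. *Npas2* and *Arntl2*, relatives of *Clock* and *Arntl*, were dim, with differences of 0.09 and 0.10 inside their expected SD of 0.462. *Rora* and *Rorb*, whose products activate where REV-ERB receptors repress, had differences of 0.15 and 0.47 (expected SD 0.095 and 0.230). The ratio of *Dbp* to *Arntl* was higher with IR-61 by 3.13 on the log2 scale. *Dbp* had the highest difference of the members and *Arntl* the lowest of this group, so a large ratio follows from the choice of this pair.

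Of the 11 other clock-associated genes 10 were measured, with a median of 0.18 and 8 above 0. *Cipc*, an inhibitor of CLOCK, was the only one higher by 2-fold or more, at 1.04 on its brighter probe, from 13789 to 39628, while its dimmer probe had a difference of 0.12 and the deposited log2 values gave 0.96 for the brighter one. *Klf10*, a zinc-finger factor under clock control, had the lowest difference, −0.98, from 22237 to 15775, and with the deposited log2 values it was past 2-fold at −1.04. *Ciart*, a repressor of CLOCK and BMAL1, had a difference of 0.50 (expected SD 0.230). The 9 kinase, phosphatase and ubiquitin ligase genes described here, whose products act on period and cryptochrome proteins, were measured, and on their brightest probes the median was 0.46, with all above 0 as scaled here and 2 higher by 2-fold or more. Of all measured genes 61.2% were above 0 and 1.99% were higher by 2-fold or more. The 2 genes were *Fbxl21*, a ligase subunit for cryptochromes, with signals of 40.0 and 126 and a difference of 1.17 (expected SD 0.379), and *Btrc*, a ligase subunit for period proteins, with 1.02 on its brighter probe and 0.33 on the other. The other probe of *Fbxl21*, with signals of 12.1 and 18.3, was not well above background with vehicle. *Ppp1cb*, a catalytic subunit of protein phosphatase 1, had the lowest difference of that group, 0.04, within its expected SD of 0.095. For casein kinase 1 the brighter probes of *Csnk1d* and *Csnk1e* had differences of 0.38 and 0.69 and the dimmer probes of −0.48 and −0.41, so the probes of these genes disagreed in sign as scaled here, though not without scaling, where the dimmer ones were at 0.01 and 0.08. Probes also disagreed in sign for the kinase genes *Gsk3b*, at 0.51 on the brightest and −0.64 and 1.12 on the others, and *Csnk2a1*, at 0.38 on the brightest and from −0.42 to 0.17 on the others.

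Genes known as targets of PAR bZIP factors in liver or of REV-ERB receptors in macrophages did not share a direction. Whether they respond to the members in RAW264.7 cells was not tested. Of 6 genes that PAR bZIP factors control in liver 5 were measured, with a median of −0.11, 2 above 0 and none past 2-fold. The highest was *Pdxk*, pyridoxal kinase, at 0.33 on its brightest probe and −0.44 and −0.56 on the others. The lowest was *Alas1*, the first enzyme of heme synthesis, at −0.62 on its brighter probe and −0.19 on the other. Of 4 genes that REV-ERB receptors repress in macrophages the median was 0.03 and none passed 2-fold. They ranged from *Ccl2*, a monocyte chemokine, at −0.35 to *Cx3cr1*, the fractalkine receptor, at 0.62, whose other measured probe had −0.36 with an expected SD of 0.379. The 8 reference genes for scale had a median of −0.09, 2 of them above 0, from −0.24 for *B2m* to 0.80 for *Hprt*. For comparison, 61.2% of all measured genes were above 0, and 1.99% were higher and 1.39% lower by 2-fold or more.

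**Figure D4:**
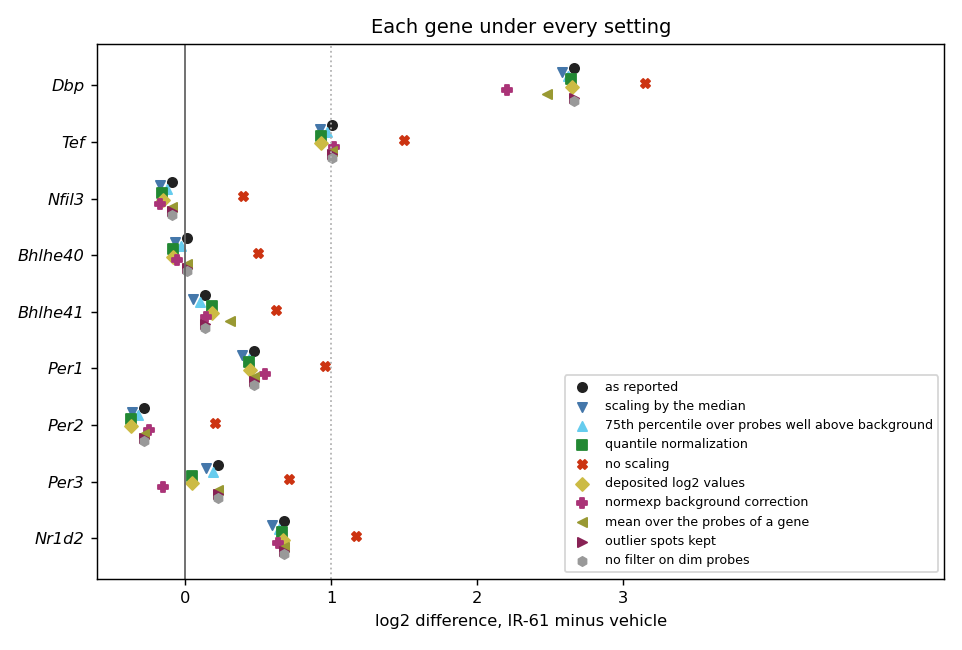
The log2 difference, IR-61 minus vehicle, of each of the 9 measured members under the reported setting and 9 alternatives (one marker each). The dotted line marks 2-fold. *Dbp* lies between 2.20 and 3.15 throughout, *Tef* between 0.93 and 1.5 on either side of the line, and the values without scaling (crosses) lie to the right because the IR-61 array was brighter.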

How the data were processed

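Gene expression of RAW264.7 cells was measured with 1 single-colour Agilent array for vehicle control and 1 for IR-61. Spot intensities from Agilent Feature Extraction were deposited by the authors, background-subtracted and detrended, with flags for outlier, saturated and well-above-background spots. The file headers name version 11.0.1.1 and the labels 11.0.0.1, and the array design was built on mm9. The authors also deposited log2 values per probe, whose 2 columns share their median at 7.15, and how they were made is not given in the sources used here. Differences of the members from these values were close to those with quantile normalization. Both gave 2.65 for *Dbp* and 0.93 for *Tef*, so the 2 settings largely repeat each other.

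Spots that were controls or outliers were left out, log2 intensities were averaged per probe, and each array was scaled by subtracting its own 75th percentile. Names came from matching probes by their RefSeq accession, without version, through a gene table of GRCm38.p6, used for names and neighbours only. Of 39419 probes 27224 were named. A gene took its brightest unsaturated probe, and no probe was saturated. The well-above-background flag had to hold on both arrays for a difference, and precision is limited by having 2 arrays. The members and gene lists were chosen with earlier results of these data known. Besides the members, the lists were activators, cryptochromes and ROR genes, other clock-associated genes, kinases and ubiquitin ligase parts, PAR bZIP targets of liver, REV-ERB targets of macrophages, reference genes and cell type markers. Named are all members, the remaining genes of the first of these lists, the largest and smallest difference of the others, and genes past 2-fold beside a member, and further genes were named after their values were seen. From these lists 2 genes are not reported here, and the counts and medians of their lists leave them out. The steps were tested on simulated arrays. The alternatives were 4 other scalings, the deposited log2 values, normexp background correction with an offset of 50, the mean over probes, outlier spots kept, no filter on dim probes and a 3-fold limit. For normexp, 4 spots of the IR-61 array whose local background exceeded their signal were given the median background. Protein sequences were not used here. Normexp was run in limma 3.58.1 (R 4.3.3), the other steps in numpy 2.4.6 and pandas 2.3.3 (Python 3.11.15), and plots in matplotlib 3.10.9.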

Additional observations from a re-analysis of the deposited data

How the results depend on the processing

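No paired analysis was possible because the arrays share a single replicate number, and 1 pair leaves no spread to test against. The number of members higher by 2-fold or more was 2, *Dbp* and *Tef*. It was 1, *Dbp* alone, with the deposited log2 values, quantile normalization, the median as the scale, the 75th percentile of detected probes and a 3-fold limit, and 3 without scaling, with *Nr1d2* at 1.17. No member was lower by 2-fold or more under any setting run. The members above 0 were 7 of the 9 as reported, 5 with normexp and 9 without scaling. They were 6 with the deposited log2 values, quantile normalization, the median as the scale and the 75th percentile of detected probes. The median of the members moved from 0.23 to 0.71 without scaling, where that of all genes moved from 0.10 to 0.59. *Per2* changed sign without scaling, to 0.21, and ranged from −0.37 upward. *Nfil3* ranged from −0.17 to 0.40, *Bhlhe40* from −0.08 to 0.50 and *Per3* from −0.15 to 0.71, so their direction is not settled. *Dbp* ranged from 2.20, with normexp, to 3.15, *Tef* from 0.93 to 1.5, *Nr1d2* from 0.60 to 1.17, *Per1* from 0.39 to 0.96 and *Bhlhe41* from 0.05 to 0.62. Over all genes, without scaling 2156 were 2-fold or more higher and 72 lower, 124 and 149 with normexp and 921 and 440 without the filter on dim probes, against 336 and 235.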

Other observations

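The genes next to the members on the chromosome give a look at their surroundings. Of the 20 nearest protein-coding genes, 1 on each side of a member, 19 were measured on both arrays, and none of these was higher or lower by 2-fold or more. Their differences ran from −0.51 to 0.74 with a median of 0.19. Among all measured genes 1.99% were higher and 1.39% lower by 2-fold or more. *Sphk2*, a sphingosine kinase gene whose annotated span overlaps that of *Dbp*, had signals of 15577 and 27665 with vehicle and IR-61 and a difference of 0.34, and *Car11*, on the other side of *Dbp*, had 0.19. *Zc3h7b* and *Tob2*, on either side of *Tef*, had 0.20 and 0.26. *Thra*, the thyroid hormone receptor gene that overlaps *Nr1d1*, was bright on both arrays, with signals of 3358 and 5123 and a difference of 0.12. These neighbours were named after their values were seen.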
